A study of Mus musculus with 12 samples.

Results

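A set of 9 genes, of 32227 in the count table, was followed through the mouse basophil lineage because its members mark or control blood progenitors. They were the surface genes Cd34, Kit and Flt3 and the transcription factor genes Myb, Myc, Gfi1, Sox4, Meis1 and Hoxa9, found by symbol. RNA sequencing had been carried out on cells sorted from C57BL/6J WT mice, whose age the labels do not give, in 4 groups of 3 libraries. The bone marrow (BM) gave 3 of the groups: CD34+ CLEC12A-high basophil progenitors (BaPs), pre-basophils, which were CD34-, CLEC12A-high and CD9-low, and mature basophils, which were CD34-, CLEC12A-low and CD9-high. The spleen gave mature basophils with the surface phenotype of the BM ones. All 4 groups were gated as CD200R3+ and c-Kit-, and no animal was treated. Cells of several animals were pooled for each library, and replicate error therefore means the spread between pools. Values are scaled counts (CPM), reads of a gene relative to the scaled total of its library.

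CD34 is a sialomucin on stem and progenitor cells. KIT and FLT3 are receptor tyrosine kinases, which bind stem cell factor and FLT3 ligand, respectively, and signal for survival and growth of early blood cells. HOXA9 and MEIS1 bind DNA together in stem cells and early progenitors, MYB keeps progenitors cycling and undifferentiated, SOX4 acts in early lymphoid and myeloid progenitors, GFI1 represses genes during granulocyte formation, and MYC drives cell growth and ribosome production. In most myeloid lineages several of these genes are turned down as cells mature. Because the sort separated BaPs from the other groups by CD34 protein, Cd34 does not test that difference independently. The c-Kit gate was the same in all 4 groups and did not separate them, although it excluded cells with c-Kit protein from each.

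BaP replicate 3 stood apart from the other libraries. Reads fell on 26743 genes there and on 21911 to 24704 in each of the 11 others, and all library totals lay between 3596108 and 8151030 counts. A list of 10 basophil genes summed to 25430 CPM in BaP replicate 3 and to 63130 to 68540 CPM in BaP replicates 1 and 2. Lists of natural killer, erythroid, T, stem, neutrophil, monocyte, eosinophil and mast cell genes each had their highest sum in it. All 6 natural killer cell genes exceeded both other BaP libraries, with a sum of 589.8 CPM against 2.39 to 54.3 CPM in the other 11 libraries, and the 8 erythroid genes summed to 2414 CPM against 6.84 to 261.6 CPM. The sum of 8 T cell genes was 351.4 CPM against 16.5 to 38.4 CPM, and that of 8 stem and multipotent progenitor genes was 69.0 CPM against 8.11 to 33.99 CPM. The leading genes of the first 3 were Klrk1 at 165.7 CPM, Hbb-bs at 982.7 CPM and Cd3d at 84.2 CPM in BaP replicate 3. The other sums were 2126 CPM for neutrophil genes against at most 1947 CPM elsewhere, 309.0 against 252.5 CPM for monocyte, 154.9 against 86.4 CPM for eosinophil and 6.58 against 3.37 CPM for mast cell genes. Of the most abundant genes of these lists and of the stem cell list, only Cma1 (5.33 CPM) was highest in it, while S100a9 (605.3), Ccr2 (101.1), Siglecf (16.0) and Hoxb4 (5.04 CPM) were not. Hlf, a stem cell transcription factor gene, was at 26.4 CPM there and at 2.87 and 2.83 CPM in BaP replicates 1 and 2. B cell genes, whose sums were highest in the spleen libraries, were also raised there among BaPs (197.7 CPM against 40.85 and 41.96 CPM). Of the 8 B cell genes, 7 exceeded both other BaP libraries. The 6 granulocyte-monocyte progenitor genes were lower in BaP replicate 3, with a sum of 1601 CPM against 4103 and 4864 CPM, led by Ctsg at 767.2 CPM against 2489 and 2135 CPM. Differences of the members and counts of genes called are therefore given below, in most cases, with and without this library. Fold changes of single related genes, list medians and the share of genes that fell without overlap include it. Neutrophil genes varied within BaPs (170.3 to 2126 CPM) and within pre-basophils (384.6 to 1947 CPM), and summed to 73.9 to 102.8 CPM in BM and 58.6 to 63.0 CPM in spleen mature basophils. The granulocyte-monocyte progenitor genes likewise summed to 2030 to 2555 CPM in pre-basophils, 615.1 to 733.9 CPM in BM and 431.9 to 456.7 CPM in spleen mature basophils. The sums of both lists thus moved with the falls of Myb, Sox4, Hoxa9 and Kit from pre-basophils to mature basophils, and their part in these was not tested. Within the second list Mpo, Elane, Prtn3, Ctsg and Ms4a3 were higher in pre-basophils than in BM mature basophils. Igsf6 went the other way (log2 -1.51, edgeR adjusted p 3.55e-06). In bulk samples, fewer cells of a type and less RNA per cell cannot be told apart.

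Of the 9 genes, 8 passed the filter on low counts and Flt3 did not. edgeR's quasi-likelihood test, with adjustment over all 15083 tested genes, called 6 of the 8 tested members for a difference among the 4 groups (adjusted p under 0.05), where 57.8% of all tested genes were called. Gfi1 and Meis1 were not called. Between BaPs and pre-basophils it called 6 members, each higher in BaPs, against 7.08% of all genes. Between pre-basophils and BM mature basophils it called 4, each higher in pre-basophils, against 27.3%. Between BaPs and BM mature basophils it called 6, each higher in BaPs, against 45% of all genes. Between spleen and BM mature basophils it called Myb and Myc, in opposite directions, against 7.83%. Without BaP replicate 3 these member counts were 6, 4, 6 and 2, with 12.4%, 35.7%, 51.3% and 18% of genes called. The counts for BaPs against pre-basophils and against BM mature basophils include Cd34, whose protein had separated those groups in the sort. The members were also chosen with earlier results of these data known, so the counts describe the set and do not test it.

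**Figure D1:**
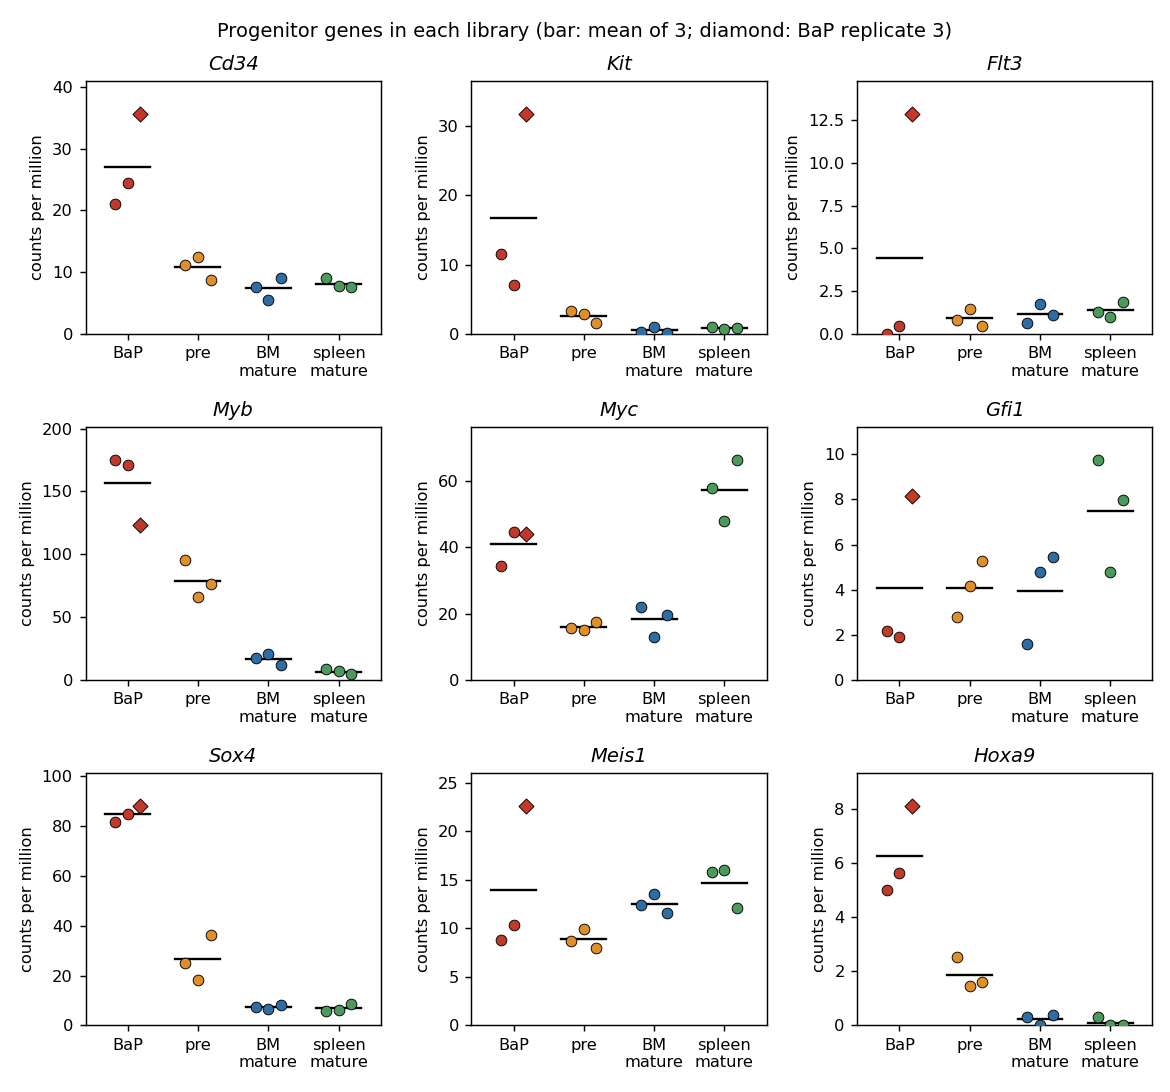
CPM of each of the 9 genes in the 12 libraries, 1 panel per gene with its own linear scale, points for libraries, black bars for the mean of 3 and a diamond for BaP replicate 3. Kit, Myb, Sox4 and Hoxa9 step down from BaP to pre-basophil to BM mature with no overlap, Myc is lowest in the 2 middle groups, and the BaP means of Kit, Flt3, Gfi1 and Meis1 rest largely on the diamond.

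Sox4 and Myb gave the clearest descending series. Sox4 (ENSMUSG00000076431.4, GRCm38 chromosome 13, 28948919 to 28953713, protein coding) was at 81.7, 84.6 and 88.1 CPM in BaP replicates 1 to 3, with pre-basophils at 25.2, 18.3 and 36.1 CPM, BM mature basophils at 7.32, 6.51 and 8.24 CPM and spleen mature basophils at 5.92, 6.27 and 8.50 CPM. The 3 bone marrow groups did not overlap, whereas both mature groups shared the same range. Sox4 was 3.16-fold higher in BaPs than in pre-basophils (log2 1.66 ± 0.20 SE, edgeR adjusted p 0.000472) and 3.61-fold higher in pre-basophils than in the mature BM cells (log2 1.85 ± 0.24 SE, edgeR adjusted p 7.84e-05). Between spleen and BM mature basophils the log2 difference was -0.09 ± 0.25 (SE, edgeR adjusted p 0.865). BaP replicate 3 hardly moved this gene, and without it the first difference was 1.63 on the log2 scale. Over both steps, BaPs exceeded BM mature basophils 11.4-fold in Sox4 and 9.62-fold in Myb (log2 3.52 and 3.27, edgeR adjusted p 1.3e-07 and 4.07e-07). Without BaP replicate 3 the log2 differences were 3.49 for Sox4 and 3.44 for Myb (edgeR adjusted p 1.33e-09 and 3.32e-10).

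Myb (ENSMUSG00000019982.15, chromosome 10, 21124935 to 21160984) continued to fall into the spleen. BaPs had 175.1, 170.7 and 123.2 CPM, pre-basophils 95.3, 65.7 and 75.8 CPM, BM mature basophils 17.5, 20.0 and 11.6 CPM, and spleen mature basophils 8.16, 6.93 and 4.25 CPM. No 2 groups overlapped, and within BaPs the lowest value was that of replicate 3, the library with fewer basophil transcripts. Myb was 1.98-fold higher in BaPs than in pre-basophils (log2 0.98 ± 0.22 SE, edgeR adjusted p 0.0173) and 4.86-fold higher in pre-basophils than in the mature BM cells (log2 2.28 ± 0.24 SE, edgeR adjusted p 1.98e-05). It was 2.53-fold lower in spleen mature basophils than in those of the BM (log2 -1.34 ± 0.27 SE, edgeR adjusted p 0.0127). The BaP to pre-basophil call was lost without pre-basophil replicate 2 (edgeR adjusted p 0.0954) or 3 (0.0817). The spleen call was lost without BM mature replicate 1 (0.0568), BM mature replicate 2 (0.0588) or spleen mature replicate 3 (0.0679). Without BaP replicate 3 both calls held, at log2 1.14 and -1.34.

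Hoxa9 was a low but graded transcript that was near the limit of detection in mature basophils. Hoxa9 (ENSMUSG00000038227.15, chromosome 6, 52223100 to 52231089) had 5.02, 5.66 and 8.13 CPM in BaPs, and pre-basophils had 2.52, 1.46 and 1.60 CPM. BM mature basophils had 0.318, 0 and 0.374 CPM, and spleen mature basophils 0.32, 0 and 0 CPM. The bone marrow groups were separate, and the 6 mature libraries held 5 reads between them, 3 in BM and 2 in spleen. A count of 0 allows up to 3 reads of a library, which was 0.287 to 0.951 CPM depending on depth. Hoxa9 was 3.49-fold higher in BaPs than in pre-basophils (log2 1.80 ± 0.45 SE, edgeR adjusted p 0.0287). For the low mature groups the ratio of summed reads is given, with an exact 95% interval for counting error only. BaPs exceeded BM mature basophils by a ratio of 28.5 (9.53 to 140, from 129 and 3 reads) and spleen mature basophils by 68.0 (18.5 to 567.7, from 129 and 2 reads). Of the 129 BaP reads 84 were in replicate 3, and replicates 1 and 2 held 45 (mean 5.34 CPM, against 6.27 CPM over all 3). Without BaP replicate 3 the edgeR log2 difference of BaPs was 4.35 from BM and 5.42 from spleen mature basophils, against 4.61 and 5.69 with it. Pre-basophils exceeded BM mature basophils by a ratio of 7.46 (2.28 to 38.6, from 25 and 3 reads; edgeR adjusted p 0.0133). The BaP to pre-basophil call was lost when pre-basophil replicate 1, 2 or 3 was left out (edgeR adjusted p 0.067, 0.138 and 0.133), and DESeq2 gave it no adjusted p. It held without BaP replicate 3 (log2 1.55, edgeR adjusted p 0.0406). The pre-basophil to BM mature call was lost without BM mature replicate 2 (0.0522).

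Kit RNA was present in BaPs although c-Kit protein was a negative sort marker. Kit (ENSMUSG00000005672.12, chromosome 5, 75574916 to 75656722) had 11.5, 7.07 and 31.8 CPM in BaPs, and pre-basophils had 3.35, 2.92 and 1.60 CPM. Among mature basophils, the BM libraries had 0.318, 1.0 and 0.187 CPM and the spleen libraries 0.96, 0.66 and 0.797 CPM. BaP replicate 3 was the highest by far, yet the other BaP libraries also lay above every pre-basophil library. The log2 difference between BaPs and pre-basophils was 2.76 ± 0.52 (SE, edgeR adjusted p 0.00744) and 1.88 ± 0.40 (SE, edgeR adjusted p 0.00471) without BaP replicate 3. Without pre-basophil replicate 3 the call was lost (edgeR adjusted p 0.0532). Between pre-basophils and BM mature basophils, which had 34 and 6 reads in all, the ratio of summed reads was 5.07 (exact 95% interval 2.11 to 14.8). That difference passed the threshold narrowly (edgeR adjusted p 0.047) and was not called by limma-voom (0.251) or when any of 7 single libraries was left out, namely pre-basophil 1 or 2, BM mature 1 or 3 and each spleen library (0.0582 to 0.179). Without BaP replicate 3 it was called (0.00508). Beside Kit in BaP replicate 3 stood the stem and multipotent progenitor genes named above, and their part in its value was not tested.

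Cd34 set BaPs apart and changed little afterwards. Cd34 (ENSMUSG00000016494.9, chromosome 1, 194938819 to 194961279) was at 21.0, 24.5 and 35.6 CPM in BaPs, with pre-basophils at 11.2, 12.4 and 8.80 CPM. BM mature basophils had 7.64, 5.51 and 8.98 CPM and spleen mature basophils 9.12, 7.76 and 7.57 CPM. Every BaP library exceeded the 9 others, and the 3 remaining groups overlapped. The BaP to pre-basophil difference, for which the cells had been sorted, was 2.55-fold (log2 1.35 ± 0.23 SE) and 1.10 on the log2 scale without BaP replicate 3. Pre-basophils and BM mature basophils, both sorted as CD34-, differed by 0.53 ± 0.26 (log2 ± SE, edgeR adjusted p 0.15), and spleen and BM mature basophils by 0.13 ± 0.25 (edgeR adjusted p 0.798).

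The steps were then set against each other, to ask whether the fall from BaPs to BM mature basophils lay mainly before or after the pre-basophil stage. Of the log2 fall of Myb, 30.1% lay between BaPs and pre-basophils, and of that of Hoxa9 39.1%. The share was 47.3% for Sox4, 54.2% for Kit and 72.0% for Cd34. For Kit and Hoxa9 it rests on 6 and 3 reads in BM mature basophils. Without BaP replicate 3 these shares were 33.3%, 35.7%, 46.7%, 44.9% and 68.3%, respectively, so Kit moved most. The test of the first step against the second called 1 of the 8 tested members, where 3.15% of all genes were called. It was Myc (log2 1.52 ± 0.35 SE, edgeR adjusted p 0.0278), which was also called without BaP replicate 3 (1.46 ± 0.34, 0.0145). Cd34, Kit, Sox4 and Hoxa9 were not called (edgeR adjusted p 0.339, 0.912, 0.839 and 0.670), so the order of their shares is a description only. For Myb the difference between steps was -1.30 ± 0.39 (log2 ± SE, edgeR adjusted p 0.0927), and without BaP replicate 3 it was called (-1.15 ± 0.32, 0.0404), where 5.26% of genes were. A replicate block by number took in all 12 libraries, spleen included, although the numbers pair only the bone marrow libraries. With this block Myb was called (-1.33, edgeR adjusted p 0.0157), so that 2 members were, against 4.56% of genes. The Myc call was lost with limma-voom (0.0556) and without BaP 2, pre-basophil 1, 2 or 3, or BM mature 1 or 3 (0.0504 to 0.142). Across all tested genes, 5.36% had every BaP library above every pre-basophil library and every pre-basophil library above every BM mature library, and 4 of the 8 tested members, Kit, Myb, Sox4 and Hoxa9, were among them.

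**Figure D2:**
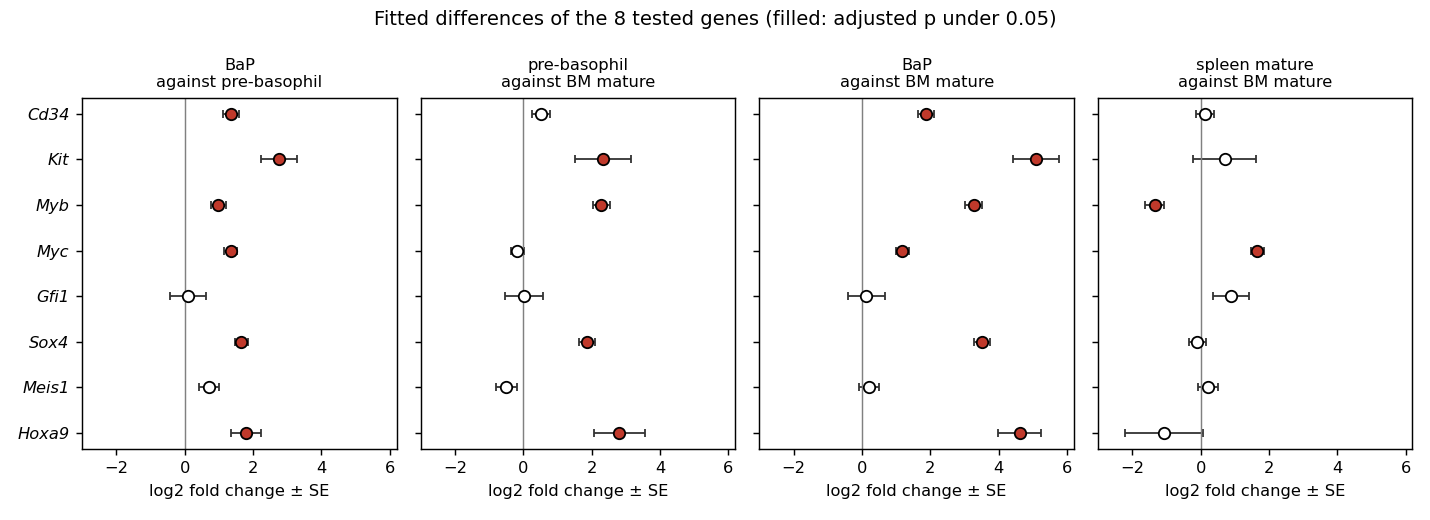
Log2 fold changes with standard errors of the 8 tested genes in 4 comparisons on 1 linear scale, with filled points for an adjusted p under 0.05. Myb, Sox4, Kit and Hoxa9 are filled and positive in the first 3 panels, and in the spleen panel Myb is negative and Myc positive.

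The sequences just before the annotated starts of Kit, Myb, Sox4 and Hoxa9, which fell together, and of the sort marker Cd34, are shown for orientation. They come from RefSeq's promoter table on GRCm38.p6, which held 8 of the 9 members, all but Myc. Each is the 150 bases before the first annotated exon base of the start region, 5′ to 3′ on the gene's strand. The window ended 71 bases before the RefSeq start for Kit, 14 for Sox4, 16 for Meis1 and 2 for Cd34. Bases between window and RefSeq start were not searched for motifs. Capitals mark matches on either strand to the MYB motif AACNG or the GFI1 motif AAATCA. The windows lie at chr13:28953714-28953863 (minus strand) for Sox4, chr10:21160985-21161134 (minus) for Myb, chr6:52227371-52227520 (minus) for Hoxa9, chr5:75574766-75574915 (plus) for Kit and chr1:194938669-194938818 (plus) for Cd34, and that of Hoxa9 lies within the span of a longer annotated Hoxa9 transcript.
Sox4: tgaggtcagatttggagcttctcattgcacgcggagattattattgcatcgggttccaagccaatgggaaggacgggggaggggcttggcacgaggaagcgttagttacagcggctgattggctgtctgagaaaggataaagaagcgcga
Myb: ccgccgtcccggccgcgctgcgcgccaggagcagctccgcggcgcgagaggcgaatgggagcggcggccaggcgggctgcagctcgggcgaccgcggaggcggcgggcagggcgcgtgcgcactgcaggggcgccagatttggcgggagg
Hoxa9: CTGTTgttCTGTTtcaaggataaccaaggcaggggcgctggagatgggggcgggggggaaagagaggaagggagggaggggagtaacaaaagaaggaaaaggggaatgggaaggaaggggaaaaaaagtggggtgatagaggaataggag
Kit: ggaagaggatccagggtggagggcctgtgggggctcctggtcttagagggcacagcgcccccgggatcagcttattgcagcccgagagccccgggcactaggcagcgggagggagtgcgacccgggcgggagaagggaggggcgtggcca
Cd34: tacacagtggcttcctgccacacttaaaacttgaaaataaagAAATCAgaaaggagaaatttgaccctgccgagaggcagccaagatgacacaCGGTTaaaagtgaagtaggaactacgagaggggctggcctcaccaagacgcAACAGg
The MYB motif was in 5 of the 8 members' windows, 2 times each before Hoxa9 and Cd34 and 1 time each before Flt3, Gfi1 and Meis1, and not in those of Sox4, Myb or Kit, while 55.1% of 32851 RefSeq promoter windows of this length held it. The GFI1 motif was found before Cd34 alone among the 8 members and in 7.04% of windows. No member window held the MYC motif CACGTG (4.3% of windows), the MEIS motif TGACAG (9.67%), the HOXA9 motif TGATTTAT (0.496%), the GATA motif AGATAA (5.65%) or the ETS motif CCGGAA (9.23%). The RUNX motif TGTGGT was in that of Meis1 (8.4% of windows). The windows differed in base composition, with 80.7% G or C before Myb, 52.7% before Sox4, 53.3% before Hoxa9, 70.7% before Kit and 47.3% before Cd34.

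Myc did not follow the descending series. Myc (ENSMUSG00000022346.15, chromosome 15, 61985391 to 61990374) was at 34.4, 44.6 and 44.1 CPM in BaPs, and pre-basophils were at 15.7, 15.1 and 17.4 CPM. Among mature basophils, the BM libraries were at 22.0, 13.02 and 19.7 CPM and the spleen libraries at 57.9, 48.0 and 66.5 CPM. The spleen libraries were the highest of all, BaPs came next without overlap, and pre-basophils and BM mature basophils shared the lowest range. The difference between BaPs and pre-basophils was 2.55-fold (log2 1.35 ± 0.19 SE, edgeR adjusted p 0.0012), and 1.29 on the log2 scale without BaP replicate 3. Pre-basophils and BM mature basophils differed by -0.17 ± 0.20 (log2 ± SE, edgeR adjusted p 0.57). Spleen exceeded BM mature basophils 3.17-fold (log2 1.66 ± 0.19 SE, edgeR adjusted p 0.000747), in every library. Both calls held under every alternative scaling, filter and tool and each left-out library, with adjusted p of at most 0.0114 and 0.00857. Myc was also higher in spleen mature basophils than in BaPs (log2 difference of BaPs -0.48 ± 0.18 SE, edgeR adjusted p 0.0306, where 54.5% of genes were called) and than in pre-basophils (-1.83 ± 0.19 SE, edgeR adjusted p 6.49e-06, where 45.7% were called). Without BaP replicate 3 the difference of BaPs was -0.53 ± 0.18 (log2 ± SE, edgeR adjusted p 0.0162, where 61.6% of genes were called). Beside this, 8 B cell genes summed to 200.5 to 342.1 CPM in spleen and to 43.9 to 58.8 CPM in BM mature basophils, with the immunoglobulin gene Ighm at 99.1 to 218.0 and 15.9 to 27.5 CPM. Their part in the Myc difference was not tested.

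A list of 31 textbook MYC targets, mostly genes of ribosome production and replication, was compared with Myc itself. Between BaPs and pre-basophils, 16 of 31 were higher in BaPs, 1 was lower and 14 were not called (54.8% called, against 7.08% of all tested genes), and the median log2 difference was 0.69 against 0.02 over all tested genes. Among those called were the nucleolar genes Fbl (2.07-fold, edgeR adjusted p 0.00131), Nop58 (1.84-fold, 0.00182), Nolc1 (2.15-fold, 0.00274) and Ppan (1.91-fold, 0.00326). Between pre-basophils and BM mature basophils, where Myc was not called, 14 were higher, 1 was lower and 16 were not called (48.4% against 27.3%), with a median of 0.52. They included Ran (3.27-fold), a nuclear transport GTPase gene, the replication helicase genes Mcm4 (4.27-fold) and Mcm5 (6.62-fold), and Cdk4 (3.48-fold), a cell cycle kinase gene. Between BaPs and BM mature basophils 24 were higher and 7 were not called (77.4% against 45%), with a median of 1.25. In spleen against BM mature basophils 2 were higher and 4 lower (19.4% against 7.83%), with a median of 0.21 against 0.01 over all genes. The prohibitin gene Phb was 1.90-fold higher in spleen (edgeR adjusted p 0.0118). The lactate dehydrogenase gene Ldha was 1.73-fold lower (0.0121), Mcm4 1.69-fold lower (0.0264) and the nucleolar gene Npm1 1.34-fold lower (0.0421). Without BaP replicate 3 the counts called were 22, 17, 27 and 11 of 31, in the same order of comparisons, beside 12.4%, 35.7%, 51.3% and 18% of all genes.

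**Figure D3:**
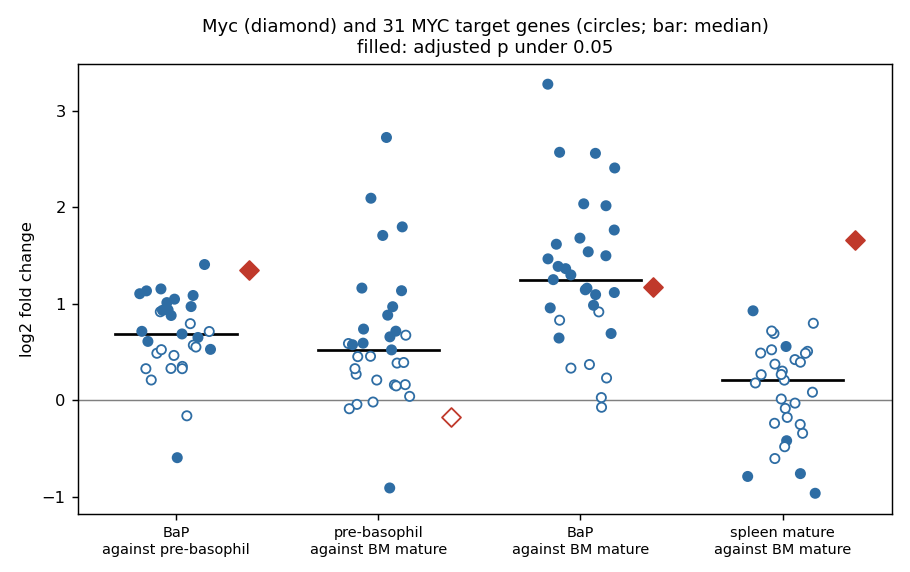
Log2 fold changes of Myc (diamonds) and 31 MYC target genes (circles, jittered sideways) in 4 comparisons, with bars for the median of the targets and filled symbols for an adjusted p under 0.05. The targets' median is 0.69 beside a Myc value of 1.35 in the first comparison, 0.52 beside -0.17 in the second and 0.21 beside 1.66 in the spleen comparison.

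Flt3, Gfi1 and Meis1 gave no difference that held across the BaP libraries. Flt3 (ENSMUSG00000042817.15, chromosome 5, 147330741 to 147400489) had 0, 2 and 133 reads in BaP replicates 1 to 3, or 0, 0.471 and 12.9 CPM. Pre-basophils had 0.839, 1.46 and 0.48 CPM, BM mature basophils 0.636, 1.75 and 1.12 CPM, and spleen mature basophils 1.28, 0.99 and 1.86 CPM. The Flt3 signal of BaPs was thus that of 1 library, and the 0 in replicate 1 allows up to 0.713 CPM. With no count filter Flt3 was called higher in BaPs than in pre-basophils (log2 2.50, edgeR adjusted p 4.1e-05), while BaP replicates 1 and 2 alone averaged 0.236 CPM against 0.926 CPM in pre-basophils.

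Gfi1 and Meis1 moved likewise with BaP replicate 3. Gfi1 (ENSMUSG00000029275.18, chromosome 5, 107716657 to 107726036) had 2.15, 1.89 and 8.13 CPM in BaPs, and pre-basophils had 2.80, 4.14 and 5.28 CPM. Among mature basophils, the BM libraries had 1.59, 4.76 and 5.43 CPM and the spleen libraries 9.76, 4.79 and 7.97 CPM. The groups overlapped, apart from BaP replicates 1 and 2, which lay below every pre-basophil and every spleen library. The BaP to pre-basophil difference was 0.10 ± 0.53 (log2 ± SE, edgeR adjusted p 0.949) and turned to -1.05 ± 0.51 (0.197) without BaP replicate 3.

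Meis1 (ENSMUSG00000020160.18, chromosome 11, 18879817 to 19018985) had 8.84, 10.4 and 22.7 CPM in BaPs, and pre-basophils had 8.66, 9.98 and 8.0 CPM. It had 12.4, 13.5 and 11.6 CPM in BM mature basophils and 15.8, 16.0 and 12.1 CPM in spleen mature basophils. Apart from BaP replicate 3, every BaP and pre-basophil library lay below every mature library, the opposite order to Hoxa9. The BaP to pre-basophil difference was 0.71 ± 0.30 (log2 ± SE, edgeR adjusted p 0.177) and 0.13 ± 0.23 (0.762) without BaP replicate 3. In that fit of 11 libraries both genes were called for a difference among the 4 groups, so that 8 of 8 tested members were, against 65.8% of all genes. Meis1 was then lower in BaPs (log2 -0.59, edgeR adjusted p 0.0231) and in pre-basophils (-0.72, 0.0035) than in spleen mature basophils. In these comparisons 61.6% and 54.4% of all genes were called, respectively. Gfi1 was lower in BaPs than in spleen mature basophils (-1.88, 0.00201), where 61.6% of genes were called. With all 12 libraries none of these differences was called (edgeR adjusted p 0.966 and 0.0635 for Meis1 and 0.213 for Gfi1).

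**Figure D4:**
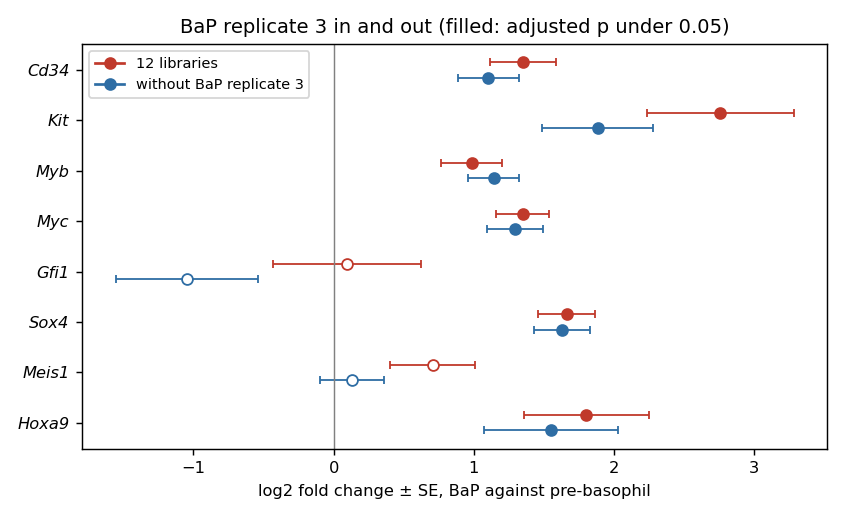
Log2 fold change of BaP against pre-basophil with its standard error for the 8 tested genes, in red from all 12 libraries and in blue without BaP replicate 3, with filled points for an adjusted p under 0.05. The 6 filled genes stay filled, Kit shrinks from 2.76 to 1.88, and Gfi1 goes from 0.10 to -1.05.

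The relatives and partners of the members were described next, from a list of 35 genes of which 22 were tested. Between BaPs and pre-basophils 2 were called, a share of 9.09% that is near the 7.08% of all genes, and 4 with the replicate block. Both were lower in BaPs, namely the FLT3 ligand gene Flt3l (1.65-fold lower, edgeR adjusted p 0.00488) and Mxd1 (1.96-fold lower, 0.0192), which encodes a MAX partner that opposes MYC. Between pre-basophils and BM mature basophils 15 of 22 were called (68.2%, against 27.3% of all genes), 5 higher in pre-basophils and 10 lower. Max, the shared partner of MYC and the MXD proteins, was at 70.2 ± 4.20 CPM (SD, n = 3) in pre-basophils, while BM mature basophils had 148.8 ± 16.7 CPM (2.12-fold lower, edgeR adjusted p 4.73e-05). Mxd3 went the other way, 10.4-fold higher in pre-basophils (25.2 ± 6.54 against 2.52 ± 1.21 CPM, edgeR adjusted p 6.65e-05). Mybl2, a MYB relative active in dividing cells, was 5.47-fold higher (0.00017), and Ep300, which encodes a coactivator that binds MYB, 1.74-fold lower (0.000206). Max and the MXD genes were therefore not of 1 direction, with Mxd1 at 82.3 ± 24.6, 162.1 ± 30.7 and 357.5 ± 64.9 CPM (SD, n = 3) from BaPs to BM mature basophils. Over the list the median log2 difference was -0.05 between BaPs and pre-basophils and -0.13 between pre-basophils and BM mature basophils. Between BaPs and BM mature basophils 6 were higher and 8 lower (63.6% against 45%), and for spleen against BM, where 7.83% of all genes were called, edgeR, DESeq2 and limma-voom each called 0, and 3 had an unadjusted p under 0.05 in edgeR. Without BaP replicate 3 the counts were 6, 15, 15 and 1, beside 12.4%, 35.7%, 51.3% and 18% of all genes.

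A further list of 40 genes of the early progenitor program, 35 of them tested, did not fall as a block. Between BaPs and pre-basophils 4 were higher, 1 was lower and 30 were not called (14.3% called, against 7.08% of all genes), with a median log2 difference of 0.31 against 0.02 over all genes. Cdk6, a cell cycle kinase gene of progenitors, was at 376.2 ± 68.8 CPM (SD, n = 3) in BaPs, 186.0 ± 14.0 CPM in pre-basophils, 68.1 ± 4.46 CPM in mature basophils of the BM and 59.6 ± 1.69 CPM in those of the spleen. It was 2.02-fold higher in BaPs than in pre-basophils (edgeR adjusted p 0.000745). The zinc finger factor gene Bcl11a was 2.76-fold higher (0.00182) and the DNA methyltransferase gene Dnmt3b 1.70-fold higher (0.0303), while Spi1, which encodes the myeloid factor PU.1, was 1.53-fold lower (0.0425). Between pre-basophils and BM mature basophils 4 were higher and 3 lower, and the 20% called was below the 27.3% of all genes. Cdk6 fell a further 2.73-fold, and Angpt1, the gene of the secreted ligand angiopoietin 1, was 3.76-fold higher in pre-basophils (1.19e-05). The transcription factor gene Tal1 was 1.79-fold lower in pre-basophils (0.0011) and Etv6 1.47-fold higher (0.0174). Between BaPs and BM mature basophils 10 were higher and 5 lower, and the 42.9% called was near the 45% of all genes. In spleen against BM mature basophils 3 were called (8.57% against 7.83%). Bcl11a was 1.88-fold higher (0.0333), and the transcription cofactor gene Lmo2 and the progenitor surface gene Cd93 were 1.45-fold lower (0.0405 and 0.0452). The counts called without BaP replicate 3 were 6, 13, 18 and 10 of the genes in this list, beside the same 4 shares of all genes as above.

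Genes whose log2 CPM pattern was most like that of each member were looked up among 9637 other tested genes with a mean of at least 10 CPM in some group. The points are the 12 libraries, which fall into 4 groups and share their preparation, so Pearson's r is a description only. Nearest to Myb were Sumo3 (r 0.993, and 0.995 over the 11 libraries without BaP replicate 3) and Paics (0.992 and 0.992). Nearest to Sox4 were Rexo2 (0.986 and 0.982) and the pseudogene Rpl3-ps1 (0.985 and 0.982), whose reads may be shared with its parent gene. For Hoxa9 they were Cct6a (0.988 and 0.989) and Fam92a (0.985 and 0.985). For Kit they were Mgat5 (0.988 and 0.984) and Twistnb (0.968 and 0.956), and for Cd34 Ndufaf4 (0.973 and 0.959) and Gm11249 (0.96 and 0.942). Myc had less close neighbours, Sord (0.914 and 0.911) and Gm8730 (0.91 and 0.905), as had Gfi1, with N4bp2l2 (0.935 and 0.929). The neighbours of Meis1, Irf8 (0.938) and Mef2c (0.913), depended on BaP replicate 3, since without it r was 0.888 and 0.836.

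Antisense or overlapping annotated genes could add reads where strand was not used in counting. Antisense genes in the count table with exons over those of a member held fewer reads than the member over all 12 libraries. These were 20 for Gm16897 beside 961 for Cd34, 82 for Gm26577 beside 4136 for Myb, 50 for A430072P03Rik beside 364 for Gfi1 and 9 for Gm16140 beside 879 for Meis1. Gm26735, antisense to Sox4, was absent from the count table. So were Gm37818 and Mir196b, which overlap exons of Meis1 and Hoxa9 on the same strand. Reads of these genes could not be judged.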

How the data were processed

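The values deposited are unnormalized counts of reads for each gene, made by the authors from libraries prepared with the TAS-Seq workflow, trimmed with cutadapt 3.4 and mapped with Bowtie2 2.4.2 to reference RNA. The methods name GRCm38 and the submitters' processing notes GRCm39 (mm39), so coordinates here are those of GENCODE M21 on GRCm38. The counting tool, strand use and treatment of reads with several matches are not given in the sources used here. PCR copies count as separate reads, so intervals and floors cover counting error only.

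Genes were filtered with filterByExpr, scaled with edgeR's trimmed mean of M values, called TMM, and fitted over all 12 libraries with edgeR 4.0.16 (R 4.3.3, quasi-likelihood test, Benjamini-Hochberg adjustment over 15083 genes). Log2 CPM took a prior count of 2. Standard errors are the log2 fold change over the root of F. Alternatives were library size alone, relative log expression, repeated TMM with a likelihood ratio test (the study's TCC scheme), DESeq2 1.42.0, limma-voom 3.58.1, other filters, a replicate block and each library left out. Simulated data were used to test the fit. The replicate numbers pair the bone marrow libraries, as the data show and no label states, since deviations from group means correlated at 0.125 to 0.262 in all 9 same-numbered pairs of marrow groups and at no more than 0.076 in differently numbered ones. They do not pair the spleen libraries with these (0 to 0.09). BaP and pre-basophil against spleen were added after the data were seen. Related genes named are up to 4 per list and comparison by smallest adjusted p, the 2 most similar genes per member with at least 5 CPM in some group (a single such result is not reported here), and leading genes of marker lists that varied over 3-fold within a group; Hlf was chosen after its values were seen. The members and gene lists were chosen with earlier results of these data known. In a chi-square test of counts, every pair of replicates differed by more than sampling noise.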

Additional observations from a re-analysis of the deposited data

How the results depend on the processing

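No gene value changed direction together with its call. Of 837 alternative values of the 40 member differences, 804 kept their side of the threshold, 26 lost a call and 7 gained one. Leaving out 1 library at a time, the members called numbered 3 to 7 between BaPs and pre-basophils (3 without pre-basophil replicate 3, where Kit, Myb and Hoxa9 were lost, and 7 without BaP replicate 1, where Flt3 entered the test), 3 to 4 between pre-basophils and BM mature basophils, 6 to 7 between BaPs and BM mature basophils, 1 to 2 between spleen and BM mature basophils, 0 to 2 for the first step against the second, and 6 to 8 for any group difference. For the steps, 2 members were called (Myc and Myb) instead of 1 with repeated TMM and a likelihood ratio test, DESeq2 and no filter, and 0 with limma-voom. A replicate block called 2 members for the steps, Myc and Myb, as did a block without BaP replicate 3, an alternative chosen after seeing the data, which also called Meis1 lower in pre-basophils than in BM mature basophils (adjusted p 0.0467) and did not call Hoxa9 between BaPs and pre-basophils (0.0741). The block changed no other member call with all 12 libraries. Library size alone moved the median log2 difference of all genes to 0.23, 0.22, 0.48 and 0.13 in the 4 pairwise comparisons, and repeated TMM to 0.12 between BaPs and BM mature basophils, with no member call changed by library size alone. Counts of related genes depended more on single libraries: between BaPs and pre-basophils 2 to 11 of the progenitor program, 1 to 6 of the relatives and 10 to 22 of the MYC targets passed the threshold, in pre-basophils against BM mature basophils 4 to 13, 9 to 16 and 12 to 17, and for spleen against BM mature basophils 0 to 10, 0 to 1 and 0 to 11 (0 of the MYC targets without spleen mature replicate 3). The progenitor program count between BaPs and pre-basophils was 8 with library size alone and 15 with no filter, and relatives 4 with no filter or a replicate block. For spleen against BM mature basophils limma-voom called 1 of the progenitor program and 3 of the MYC targets. Hoxa9, Kit and Flt3 were limited by depth in mature basophils. The causes were not tested.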
